A study of Mus musculus with 2 samples.

Results

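The genes examined here encode the subunits of NF-κB and the IκB proteins that bind them, in pancreatic lymph node (PLN) CD4+ T cells of mice given a nondepleting antibody to CD4. They were chosen by name, with earlier results of these data in view: the NF-κB subunit genes *Nfkb1*, *Nfkb2*, *Rel*, *Rela* and *Relb*, the classical IκB genes *Nfkbia*, *Nfkbib* and *Nfkbie*, and the atypical IκB genes *Nfkbid* and *Nfkbiz*. Of these 10 genes, 9 had a probe set with a single gene symbol, out of 19938 genes with such a probe set, and each of the 9 was represented by just 1 probe set. *Nfkb1* was not analysed here. Both conditions used BDC mice aged 8 weeks, which received either ND αCD4 (clone YTS177) or an isotype control Ab (clone 2A3). After 48 hours their PLN were taken, live cells positive for CD3 and CD4 were sorted, and the RNA of each condition went onto 1 array. BDC mice are NOD mice that carry the rearranged TCR transgenes of a single diabetogenic CD4+ T cell clone, so that both arrays measured T cells of largely 1 specificity. The sample labels spell the mice BDC2.4, which differs from the clone number in the study's methods, and give 1 mg of antibody, whereas the methods give a larger amount of 2A3 than of YTS177. The methods also name another version of the mouse array than the platform annotation that lists these probe sets, and every gene name below rests on that annotation. Cells of several mice were pooled for the sort, so the arrays hold no information on differences between mice, and no p value or error between animals can be given for any difference below.

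NF-κB is a family of dimeric transcription factors that share a Rel homology domain. In resting T cells, the classical IκB proteins hold the dimers in the cytoplasm. TCR and CD28 signals act through BCL10 and MALT1 to activate the IκB kinase (IKK), which marks IκB for ubiquitination and destruction, and the freed RelA and c-Rel dimers enter the nucleus and induce genes of activation, survival and cytokine production. A separate, noncanonical route processes the *Nfkb2* product and releases RelB. The atypical IκB proteins are induced by stimulation, act in the nucleus and adjust which NF-κB target genes are transcribed. Several family genes, among them *Nfkbia*, *Nfkbie*, *Nfkb2* and *Relb*, are themselves NF-κB targets, so their mRNA is commonly read as part of the feedback of the pathway.

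The promoters of these genes are shown because such feedback is known to run through κB sites near the start of transcription. The RefSeq promoter table (build GRCm38.p6, the C57BL/6J reference and not the NOD sequence) held windows of 250 bases before and 50 bases after a start site for 7 of the genes, *Nfkb2*, *Rel*, *Rela*, *Nfkbia*, *Nfkbib*, *Nfkbie* and *Nfkbid*, with 11 windows in all. The consensus κB motif of 10 bases (GGG, a purine, any 2 bases, 2 pyrimidines and CC) was searched on both strands, and overlapping matches were merged. It was present in at least 1 window of 5 of the 7 genes, against 9.55% of all 27025 genes in the table, and in 7 of the 11 windows, against 8.46% of all 32851 windows of the same length. These shares describe letters in a window and say nothing of binding in these cells. The windows below, each read 5′ to 3′ on the strand of its gene, belong to the gene with the lowest log2 ratio (*Nfkbid*, the middle of its 3 windows), to a feedback inhibitor (*Nfkbia*), to the subunit gene with the lowest log2 ratio (*Nfkb2*, the first of its 3 windows) and to the 1 gene with a log2 ratio above 0 (*Rela*). Capitals mark the matches to the κB consensus, and the *Rela* window has none.
*Nfkbid* chr7:30422156-30422455, plus strand: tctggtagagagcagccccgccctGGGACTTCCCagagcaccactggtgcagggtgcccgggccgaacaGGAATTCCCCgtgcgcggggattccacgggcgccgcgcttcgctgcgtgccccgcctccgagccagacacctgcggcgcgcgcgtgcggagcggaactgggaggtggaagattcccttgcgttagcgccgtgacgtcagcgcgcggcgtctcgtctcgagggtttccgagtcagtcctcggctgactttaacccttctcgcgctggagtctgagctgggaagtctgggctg
*Nfkbia* chr12:55492598-55492897, minus strand: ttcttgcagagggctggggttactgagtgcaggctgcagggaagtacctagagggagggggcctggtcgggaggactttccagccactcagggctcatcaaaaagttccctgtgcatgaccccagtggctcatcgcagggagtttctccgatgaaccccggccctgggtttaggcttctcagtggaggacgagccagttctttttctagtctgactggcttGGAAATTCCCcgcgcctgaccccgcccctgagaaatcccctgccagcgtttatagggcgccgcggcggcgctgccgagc
*Nfkb2* chr19:46304487-46304786, plus strand: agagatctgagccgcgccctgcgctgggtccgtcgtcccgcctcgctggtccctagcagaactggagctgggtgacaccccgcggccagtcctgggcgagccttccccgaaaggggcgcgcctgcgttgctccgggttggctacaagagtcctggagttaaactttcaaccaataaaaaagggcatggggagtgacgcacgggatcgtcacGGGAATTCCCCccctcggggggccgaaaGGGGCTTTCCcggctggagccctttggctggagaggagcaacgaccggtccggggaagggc
*Rela* chr19:5637291-5637590, plus strand: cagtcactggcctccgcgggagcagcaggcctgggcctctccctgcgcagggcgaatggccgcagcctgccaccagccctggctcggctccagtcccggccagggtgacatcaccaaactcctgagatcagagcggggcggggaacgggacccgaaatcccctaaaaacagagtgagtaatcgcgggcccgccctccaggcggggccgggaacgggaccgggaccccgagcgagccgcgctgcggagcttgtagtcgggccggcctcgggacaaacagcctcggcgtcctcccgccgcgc

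The matches in the *Nfkbid* window began 226 and 181 bases before the start site, the match in *Nfkbia* 29 bases before it, and those in the first *Nfkb2* window 39 and 11 bases before it. The other *Nfkb2* windows, which overlap, held GGAATGTCCC and GGGACTTTCC. *Rel* held a merged match of 11 bases, GGGAAATCCCC, 92 bases before its start site, and *Nfkbie* held GGGGGATTCC, 106 bases before its start site. The first and the last of the *Nfkbid* windows held no match. Neither the *Nfkbib* window nor the *Rela* window held a match, which says only that these letters are not in those windows.

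Each array gave 1 deposited log2 value for each of 35557 probe sets, and the medians were 8.15 in both the ND αCD4 array and the isotype control array. Background was set from 1210 probe sets of odorant and pheromone receptor genes, as their 95th percentile, 7.56 in the ND αCD4 array and 7.64 in the isotype control array. A gene above it in either array counted as detected, which held for 13222 genes. Of the CD4 T cell markers *Cd3d*, *Cd3e*, *Cd3g*, *Cd247*, *Cd4*, *Cd5*, *Lck* and *Trat1*, 7 of 8 had a probe set and all 7 exceeded background in both arrays, with *Cd4* at 13.48 in the ND αCD4 array and 13.38 in the isotype control array. Each difference is given as a log2 ratio (ND αCD4 minus isotype control), and the words at least 1.5-fold refer to the measured value. As a yardstick for measurement error, the log2 ratios of 2 probe sets of the same gene had an SD of 0.09 over 536 genes. This covers neither differences between mice nor differences between sorts.

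All 9 measured genes exceeded background in both arrays, by at least 1.69 on the log2 scale in the ND αCD4 array and at least 1.85 in the isotype control array. With ND αCD4, 1 of the 9 genes, *Nfkbid*, was at least 1.5-fold lower, where 1.01% of all detected genes were, and 0 were at least 1.5-fold higher, where 0.212% of all detected genes were. Of the 9 log2 ratios, 8 were below 0, as were 52.7% of all detected genes, 1 was above 0, as were 46.7%, and 7 were below 0 by more than the SD between probe sets, as were 26.5% of all detected genes. The median over the 9 genes was -0.19, against -0.01 over all detected genes. The genes were named with these values known, so the counts are a description. In sorted bulk cells, fewer cells that express a gene and less of its mRNA in each cell cannot be told apart.

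**Figure D1:**
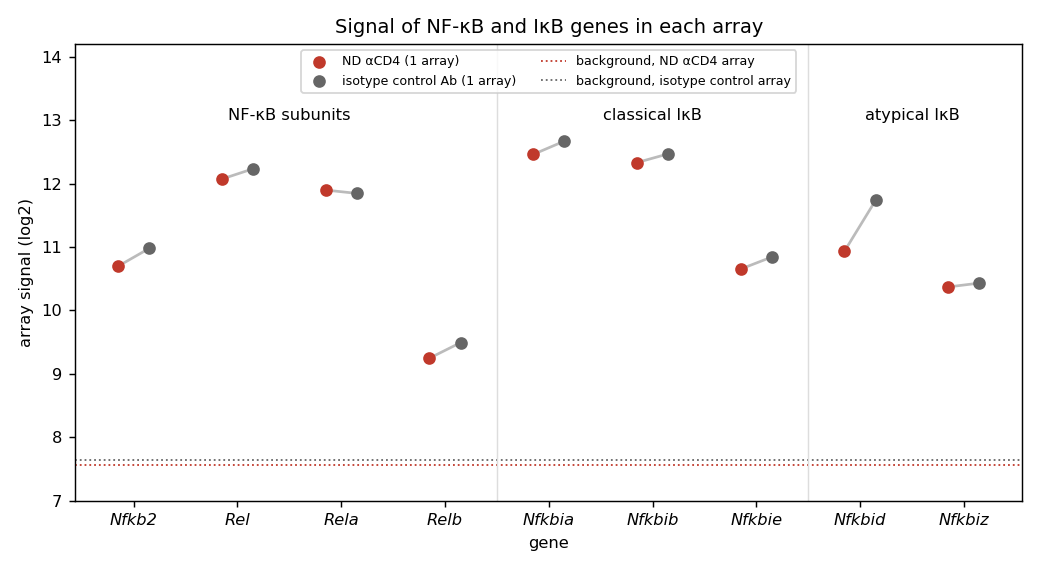
Array signal (log2) of the 9 measured genes by role, with the ND αCD4 array in red and the isotype control array in gray, 1 array each, and dotted lines at the background of each array. The line that joins both values is steepest for Nfkbid (10.93 with ND αCD4 and 11.74 with the isotype control), and signals of different genes cannot be ranked because each has its own probes.

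Among the 4 measured NF-κB subunits, the genes of the noncanonical route had the lowest log2 ratios. Neither differed from *Rel* by more than 0.13, the SD for a difference between 2 genes. *Nfkb2*, whose product is processed to the partner of RelB, had a signal of 10.70 in the ND αCD4 array and 10.98 in the isotype control array, a log2 ratio of -0.28, or 1.21-fold lower. *Relb*, which encodes that partner, had 9.25 in the ND αCD4 array and 9.49 in the isotype control array, a log2 ratio of -0.25, or 1.19-fold lower. Both log2 ratios lay beyond the SD between probe sets, and neither gene came near 1.5-fold. *Rel* encodes c-Rel, the subunit most tied to T cell activation and *Il2* transcription. Its signal was 12.07 with ND αCD4 and 12.23 with the isotype control, a log2 ratio of -0.16. *Rela*, which encodes the widely expressed main activating subunit, had 11.90 with ND αCD4 and 11.85 with the isotype control. Its log2 ratio of 0.05 was the only one above 0 among the 9 genes and was within the SD between probe sets. The 4 subunit genes had a median log2 ratio of -0.20.

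The classical IκB genes lay close together, all on the lower side. *Nfkbia*, which encodes IκBα, the inhibitor resynthesized after each round of NF-κB activation, had a signal of 12.46 in the ND αCD4 array and 12.67 in the isotype control array, a log2 ratio of -0.21, or 1.16-fold lower. *Nfkbie*, which encodes IκBε, also an inducible inhibitor, had 10.65 with ND αCD4 and 10.84 with the isotype control, a log2 ratio of -0.19. *Nfkbib*, which encodes IκBβ, had 12.33 with ND αCD4 and 12.47 with the isotype control, a log2 ratio of -0.14. All 3 log2 ratios were beyond the SD between probe sets, none was past 1.5-fold, and they spanned less than that SD among themselves.

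The atypical IκB genes differed from each other more than any other pair with the same role. *Nfkbid*, which encodes IκBNS, a nuclear IκB protein that is induced by TCR signaling and takes part in the development of regulatory T cells in mice, had a signal of 10.93 in the ND αCD4 array and 11.74 in the isotype control array. Its log2 ratio of -0.80, or 1.74-fold lower, was the 54th lowest of the 13222 detected genes. *Nfkbiz*, which encodes IκBζ, a nuclear IκB protein best known from innate immune cells and Th17 cells, had 10.37 with ND αCD4 and 10.43 with the isotype control, and its log2 ratio of -0.06 was within the SD between probe sets. In the same ranking, *Nfkb2* was 677th lowest, *Relb* 910th lowest and *Nfkbiz* 4553rd lowest.

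In order of log2 ratio, *Nfkbid* was followed by *Nfkb2*, *Relb*, *Nfkbia*, *Nfkbie*, *Rel*, *Nfkbib*, *Nfkbiz* and *Rela*. The gap between *Nfkbid* and *Nfkb2* was 0.52, against an SD of 0.13 for a difference between 2 genes. No other gap between neighbors in this order, the widest being 0.11 between *Nfkbiz* and *Rela*, exceeded that SD. The plot of log2 ratio by signal shows the same separation.

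**Figure D2:**
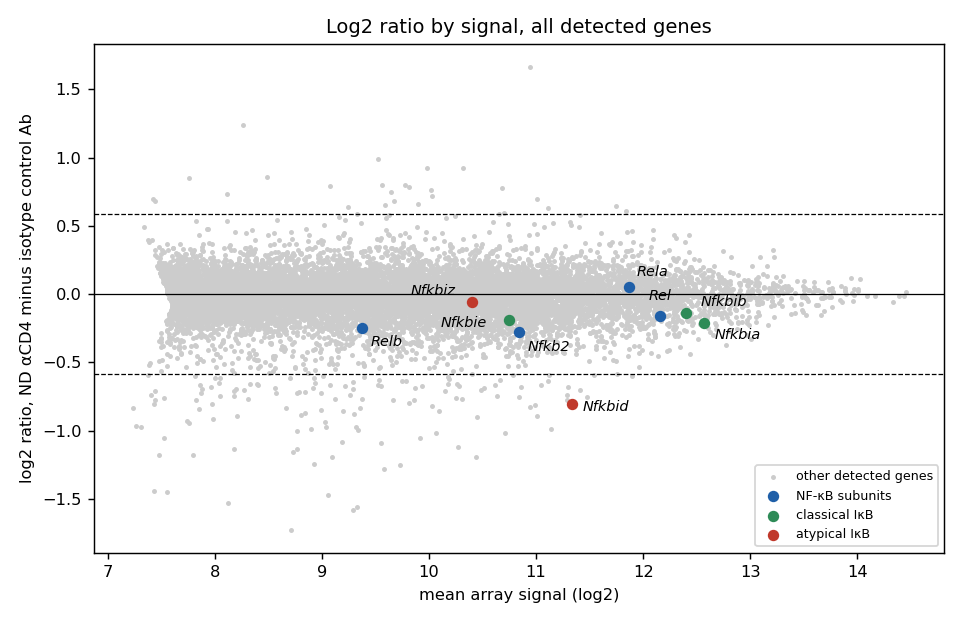
Log2 ratio (ND αCD4 minus isotype control) against mean signal (log2) of all 13222 detected genes in gray, with the measured NF-κB and IκB genes in color by role, 0 as a solid line and the 1.5-fold rule as dashed lines. Nfkbid lies below the lower dashed line at -0.80, and the other 8 genes lie between -0.28 and 0.05, within the cloud of detected genes.

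The detected genes nearest to *Nfkbid* in their 2 array values were *Acot7*, an acyl-CoA thioesterase gene, *Mcm7*, a subunit of the replicative helicase, and *Slc7a5*, the amino acid transporter subunit. Their Euclidean distances from *Nfkbid*, over both log2 values, were 0.07, 0.09 and 0.10. *Acot7* had 10.90 with ND αCD4 and 11.68 with the isotype control, and *Mcm7* had 10.92 with ND αCD4 and 11.65 with the isotype control. Each gene has its own probes, so this nearness is one of array signals and not of mRNA amounts.

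The route from the TCR to NF-κB was also read from genes outside the family, in lists drawn from general knowledge. Of the genes from PKCθ to the ubiquitin enzymes that act with BCL10 and MALT1, 8 were detected, 0 passed 1.5-fold in either direction, and the median log2 ratio was -0.03. *Prkcq*, which encodes PKCθ, had a log2 ratio of 0.13, *Bcl10* of -0.06, and *Malt1*, which encodes a protease, of 0.05. *Ube2n*, the enzyme that builds K63-linked ubiquitin chains, was the lowest of this list at -0.33 (10.69 with ND αCD4 and 11.02 with the isotype control). *Ube2n* has 2 probe sets, and this value is from the one with the higher mean. Of 11 IKK and TAK1 kinase genes and their partners, 9 were detected, none passed 1.5-fold, and the median was 0.04. *Ikbkb*, the catalytic subunit of IKK in the canonical route, had a log2 ratio of 0.14, and *Tank*, an adaptor of the IKK-related kinases, had the lowest at -0.16.

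Genes of the noncanonical route upstream of *Nfkb2* and *Relb* lay on both sides of 0. Of 9 listed, 8 were detected, 6 lay above 0 and 2 below 0 (5 and 3 under quantile normalization), none passed 1.5-fold, and the median was 0.04. Of all detected genes, 46.7% lay above 0. *Map3k14*, which encodes the NF-κB-inducing kinase that starts processing of the *Nfkb2* product, had a log2 ratio of 0.12. The receptor gene *Ltbr* was at 0.17, with signals closer to background (8.62 with ND αCD4 and 8.45 with the isotype control). On the lower side, like *Nfkb2* and *Relb*, were *Birc3*, a ubiquitin ligase gene, at -0.10 and *Tnfrsf11a*, which encodes the receptor of RANKL, at -0.13. The signals of *Tnfrsf11a* were also close to background, 8.09 with ND αCD4 and 8.22 with the isotype control. All 10 genes of IκB ubiquitination and NF-κB turnover were detected, 5 with a log2 ratio above 0 and 5 below 0, with a median that rounded to 0.00. *Btrc*, which encodes a receptor of IκB in the ubiquitin ligase, was at -0.13, its relative *Fbxw11* at 0.02 and *Commd1*, which promotes turnover of RelA, at -0.17.

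Other inhibitors of the pathway were listed as negative feedback genes. Of these 12, 11 were detected, 9 with a log2 ratio below 0 and 2 above 0 (7 and 4 under quantile normalization). Of all detected genes, 52.7% were below 0. None of the 11 passed 1.5-fold, and the median was -0.03. Only 2 (*Tnip2* and *Otulin*) were lower by more than the SD between probe sets, as were 26.5% of all detected genes. *Tnfaip3*, which encodes the ubiquitin-editing inhibitor A20 and is, like *Nfkbia*, an NF-κB target, had a signal of 11.01 in both arrays. *Cyld*, a deubiquitinase gene, had a log2 ratio of -0.06, *Otulin*, also a deubiquitinase gene, of -0.10 and *Tnip2*, a binding partner of A20, of -0.13. *Bcl3*, an atypical IκB gene outside the list above, had 11.54 with ND αCD4 and 11.49 with the isotype control, and the median of the 4 other IκB-like genes was 0.01. The products of the NFAT genes carry a related Rel homology domain. All 5 had a log2 ratio above 0, as did 46.7% of all detected genes. In 3 of them it was above 0 by more than the SD between probe sets, as in 2643 of all 13222 detected genes. *Nfatc2* was the highest at 0.24, the median was 0.13, and none passed 1.5-fold. The signals of *Nfatc4* were close to background, 7.82 with ND αCD4 and 7.76 with the isotype control.

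**Figure D3:**
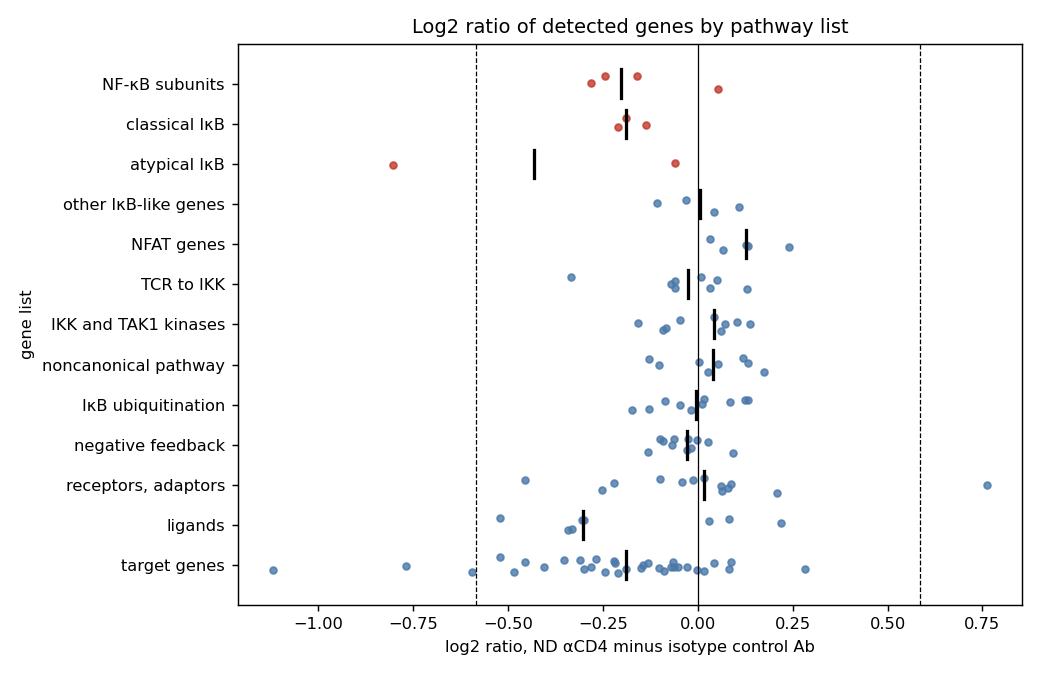
Points are detected genes, in 1 line per list, by log2 ratio (ND αCD4 minus isotype control), with NF-κB and IκB family genes in red and other pathway genes in blue. Black bars are list medians, the solid line is 0, and dashed lines mark 1.5-fold. The subunit and classical IκB medians are -0.20 and -0.19, the kinase median is 0.04, and the ligand median is -0.30. Points are spread vertically only to be seen.

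Ligands whose receptors signal to NF-κB lay on both sides of 0. Of 10 listed, 8 were detected, 5 of them with a log2 ratio below 0 and 3 above 0, none past 1.5-fold, with a median of -0.30. Of all detected genes, 52.7% were below 0. The 5 were below 0 by more than the SD between probe sets, as were 26.5% of all detected genes, and 1 ligand was above 0 by more than it. *Tnf* had the lowest log2 ratio, at -0.52 (10.63 with ND αCD4 and 11.16 with the isotype control). *Tnfsf11*, which encodes RANKL, was at -0.34 and *Tnfsf14*, which encodes LIGHT, at -0.30, while *Cd40lg* was at 0.22. *Tnfsf4* exceeded background only in the isotype control array and was at least 1.13-fold lower with ND αCD4. Among 16 receptors and adaptors upstream of NF-κB, 13 were detected, with a median of 0.02. Of these, 1 passed 1.5-fold, on the higher side, as did 0.212% of all detected genes. *Il18r1*, which encodes an IL-18 receptor subunit, was 1.70-fold higher (10.40 with ND αCD4 and 9.64 with the isotype control). *Tnfrsf9*, which encodes the costimulatory receptor 4-1BB, was at -0.46, *Tnfrsf1b*, which encodes a TNF receptor, at -0.25 and *Cd28* at -0.01.

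Of 37 genes listed as NF-κB targets in T cells, 33 were detected, 28 with a log2 ratio below 0, as were 52.7% of all detected genes, and 5 above 0. Of these, 3 were at least 1.5-fold lower, as were 1.01% of all detected genes, none was at least 1.5-fold higher, and the median was -0.19. The list shares genes with other lists above, among them *Tnf*, *Tnfrsf9* and *Tnfaip3*, so its counts are not separate from theirs. The list also holds 4 of the NF-κB and IκB genes above. Without them, 24 of 29 detected targets had a log2 ratio below 0, 3 were at least 1.5-fold lower and the median was -0.14. Those 3 genes were *Irf4*, a transcription factor gene that c-Rel is known to induce in lymphocytes, at -1.12 (9.71 with ND αCD4 and 10.83 with the isotype control), *Cd83*, an activation marker, at -0.77 (9.93 with ND αCD4 and 10.70 with the isotype control), and *Il2ra*, the IL-2 receptor α chain, at -0.59 (10.82 with ND αCD4 and 11.42 with the isotype control). *Gadd45b*, a stress-induced gene, was at -0.41. Among genes that encode inhibitors of cell death, *Bcl2l1* (Bcl-xL) was at -0.35, while *Cflar* at -0.09 and *Xiap* at -0.06 were within the SD between probe sets. *Il2ra* fell short of 1.5-fold under lowess correction and under quantile normalization, which leaves 2 genes. At the other end, *Ccl5* had a log2 ratio of 0.28 and *Traf1* of 0.09. Most of these genes are known targets of other TCR-driven factors too, and *Il2* and *Csf2* did not exceed background in either array.

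**Figure D4:**
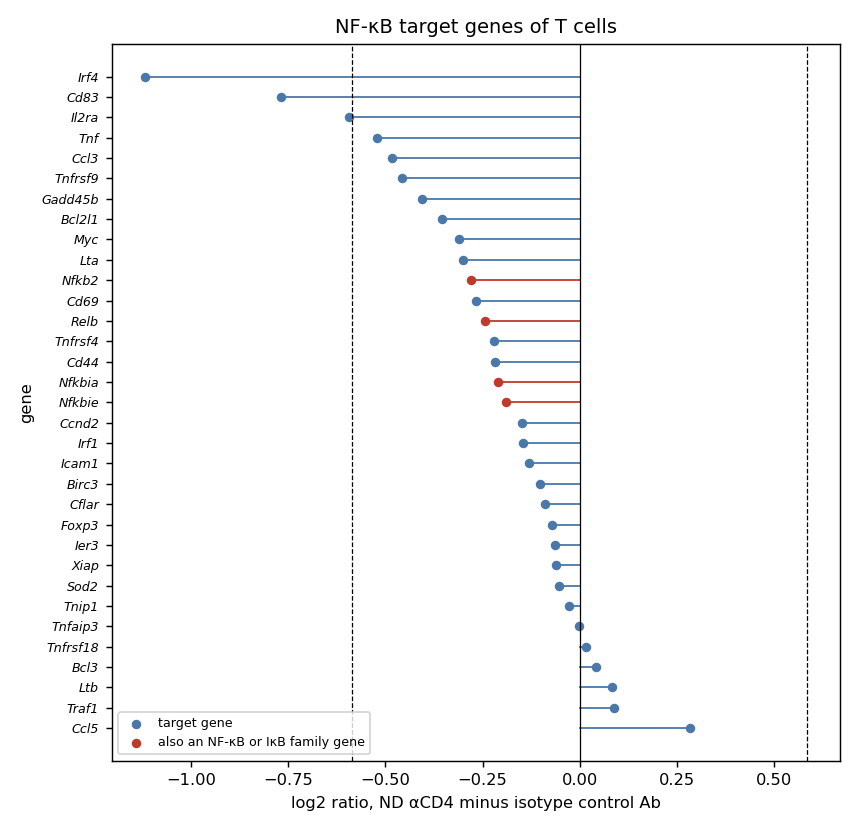
The 33 detected NF-κB target genes in order of log2 ratio (ND αCD4 minus isotype control), with the 4 NF-κB and IκB family genes of the list in red, 0 as a solid line and the 1.5-fold rule as dashed lines. Irf4, Cd83 and Il2ra lie past the lower dashed line, and Nfkb2, Relb, Nfkbia and Nfkbie lie between -0.28 and -0.19.

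Other measures moved with these differences, and their part in them was not tested. Of 12 proliferation genes, 11 were detected, and the median log2 ratio was -1.24. With ND αCD4, 10 of these 11 were at least 1.5-fold lower, as were 1.01% of all detected genes. *Pcna*, which has 2 probe sets, was the exception at -0.33 in the one with the higher mean. *Bub1* and *Birc5* exceeded background only in the isotype control array and were at least 1.64-fold and at least 1.47-fold lower. Of 13 handling and stress genes, 12 were detected. *Jun* (1.66) and *Fos* (0.65) were past 1.5-fold on the higher side, as were 0.212% of all detected genes, and *Hsph1* (-0.82) on the lower side. The CD8 T cell markers *Cd8a* and *Cd8b1* had summed linear signals of 4984 in the ND αCD4 array and 3478 in the isotype control array, and the 7 CD4 T cell markers had 56059 in the ND αCD4 array and 55496 in the isotype control array. Of 5 NK cell markers, 2 were detected (*Klrd1* and *Gzma*), with summed signals over all 5 of 1056 with ND αCD4 and 722 with the isotype control. *Ncr1*, *Klrb1c* and *Klrk1*, which are part of these sums, did not exceed background in either array. *Klrd1* exceeded background only with ND αCD4, at least 1.46-fold higher. B cells and dendritic cells also express many of these family genes. Of 9 B cell markers, 8 were measured and 7 detected. All 7 had a log2 ratio above 0, as did 46.7% of all detected genes. Among them, *Cd79a* and *Fcer2a* exceeded background only with ND αCD4, and *Ms4a1* and *Blk* lay close to background in both arrays. The sum of the 8 was 3035 with ND αCD4 and 2803 with the isotype control. *Cd79b* had a signal of 10.44 with ND αCD4 and 10.34 with the isotype control, and *Ebf1* did not exceed background in either array. Of 8 dendritic cell markers, 3 were detected, each in both arrays. With ND αCD4 and the isotype control in turn, *Zbtb46* had 8.15 and 8.19, *Fscn1* 8.04 and 8.19, and *Siglech* 7.81 and 7.88. The sum over all 8 was 1449 with ND αCD4 and 1512 with the isotype control. *Itgax*, *Flt3*, *Xcr1*, *Clec9a* and *Ccl22* did not exceed background in either array. Of 9 macrophage and monocyte markers, 8 were measured and 4 detected, and the sum of the 8 was 1986 with ND αCD4 and 1836 with the isotype control.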

How the data were processed

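RNA of sorted PLN CD4+ T cells was measured on 2 arrays, 1 with ND αCD4 and 1 with the isotype control Ab. The deposited values are log2 signals, 1 per probe set and array, which the authors made, per the labels, with Affymetrix Expression Console. Not given in the sources used here are its version and how background, scaling and probe set summary were handled. That they are log2 was inferred from their range (2.52 to 14.7). Probe sets were named through the platform annotation, and only those with 1 symbol were used, 21789 of 35557. All 9 measured genes matched the RefSeq table of GRCm38.p6 by gene identifier. A gene with several probe sets was represented by the one with the highest mean. Background, the log2 ratio and the 1.5-fold rule are as defined in the report, and no test could be run with a single array per condition. Where a gene exceeded background in only 1 array, its fold was bounded with the other array's background.

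The genes and lists were chosen with earlier results of these data known. Besides the 9 genes, the text names genes of each pathway list past 1.5-fold or with the largest log2 ratios in size, markers of the highest signal, and the 3 genes nearest to *Nfkbid*. Others were named for their role after their values were seen, among them *Bcl10*, *Malt1*, *Fbxw11*, *Cyld*, *Tnfaip3*, *Cd28*, *Cd40lg*, *Birc3*, *Bcl2l1*, *Cflar*, *Xiap*, *Gadd45b*, *Ccl5*, *Traf1*, *Pcna*, *Ebf1* and the dendritic cell markers. Some genes near or below background were named to show that limit. The alternatives were other scalings, filters, background levels, probe set choices and size rules. Scripts ran in Python 3.11.15 with pandas 2.3.3, numpy 2.4.6, matplotlib 3.10.9 and statsmodels 0.14.6.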

Additional observations from a re-analysis of the deposited data

How the results depend on the processing

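With a 2-fold rule, 0 of the 9 genes were lower, since *Nfkbid* was 1.74-fold lower. With a 1.3-fold rule and under the other alternatives, the count remained at 1 lower and 0 higher. These were quantile normalization, median centring, lowess correction (3 iterations, fraction 0.3), no filter, detection in both arrays, values floored at background, background at the 99th percentile, and the mean or the lowest-mean probe set. Under them *Nfkbid* ranged from -0.80 to -0.78, the median of the 9 genes from -0.19 to -0.17 and *Rela* from 0.05 to 0.07, and none of the 9 log2 ratios changed sign. Probe set choices could not alter these genes, which have 1 probe set each. Of 108 list medians under alternatives, 4 moved by more than the SD between probe sets, all for the proliferation or the handling and stress list. The median of the genes from PKCθ to the ubiquitin enzymes lay between -0.03 and 0.01, and that of the IκB ubiquitination genes between -0.01 and 0.02, so neither has a settled sign. The alternative planned for linear values was not run, since the values are on a log2 scale. No paired analysis was possible because each condition has 1 array.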
